A study of Homo sapiens with 41 samples.

Results

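The matrix metalloproteinases MMP1, MMP2, MMP3, MMP9, MMP13, MMP14 and MMP15 and their tissue inhibitors TIMP1, TIMP2 and TIMP3 were followed across 6 tables of normalised read counts. These 10 genes were taken by their symbols, and each had a row in every table, of 21595 genes listed for A375R tumours and 23368 in each other table. The 41 libraries fell into 15 groups. A375 melanoma cells in culture were sampled under vehicle and after 6 h and 48 h of vemurafenib at 0.1 uM, with 3 libraries each. Colo800 and UACC62 melanoma cells received 1 uM vemurafenib or vehicle, and H3122 lung adenocarcinoma cells received 0.3 uM crizotinib or vehicle, with drug groups labelled 48 h and 2 libraries per group. All drugs and vehicles were given to cultures in medium with 2% serum. A375 tumours from mice given 10 doses of vemurafenib at 75 mg/kg or vehicle had 4 libraries per group. A375R tumours, from a line that the labels name only so, had 3 libraries in each of 4 groups, which were A375R mixed with A375 cells under vemurafenib and under vehicle, and A375R alone under vemurafenib and under vehicle, with the same dosing. Which cells are mixed was read from the titles together with the growth protocol. Each line is human, tumours grew under the skin of mice after injection with matrigel, and treatment began at 50 to 150 mm3. Cultures gave whole-cell RNA, while tumours gave RNA on ribosomes pulled down through beads against GFP, and the tumour labels name the ribosomal protein RPL10a. Which cells carry the tag in mixed tumours is not spelled out in the labels.

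Matrix metalloproteinases are zinc proteases that cut collagens and other proteins outside the cell. They are made as inactive precursors, and TIMPs block the active enzymes by binding the catalytic site. MMP1, MMP3, MMP9 and MMP13 are well known targets of AP-1 and ETS factors downstream of ERK signalling. A375, Colo800 and UACC62 carry mutant BRAF, the kinase that vemurafenib inhibits, and H3122 carries an EML4-ALK fusion, whose kinase crizotinib inhibits.

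The promoters of TIMP1 and TIMP3, which were called lower in all 3 melanoma cultures at 48 h, and of MMP15, which was called higher in A375 cells in culture and in tumours, are shown because the results below turn on them among the 4 members with a promoter in the RefSeq table. Each sequence is the 250 bases before the gene's start in build GRCh38.p14, plus strand, 5′ to 3′, with capitals marking motif matches. MMP15 lies at chr16:58025504-58025753, TIMP1 at chrX:47582186-47582435 and TIMP3 at chr22:32801455-32801704.
MMP15: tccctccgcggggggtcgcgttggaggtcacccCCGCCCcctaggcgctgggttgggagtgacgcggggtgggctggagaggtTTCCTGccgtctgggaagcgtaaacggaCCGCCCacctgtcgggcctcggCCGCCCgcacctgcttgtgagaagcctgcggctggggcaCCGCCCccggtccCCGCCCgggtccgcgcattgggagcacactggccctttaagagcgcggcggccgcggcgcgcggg
TIMP1: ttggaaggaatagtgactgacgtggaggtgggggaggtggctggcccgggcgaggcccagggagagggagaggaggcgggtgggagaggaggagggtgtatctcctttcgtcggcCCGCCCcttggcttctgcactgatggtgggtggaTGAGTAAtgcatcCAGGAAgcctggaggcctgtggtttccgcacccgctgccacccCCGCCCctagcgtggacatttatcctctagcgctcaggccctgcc
TIMP3: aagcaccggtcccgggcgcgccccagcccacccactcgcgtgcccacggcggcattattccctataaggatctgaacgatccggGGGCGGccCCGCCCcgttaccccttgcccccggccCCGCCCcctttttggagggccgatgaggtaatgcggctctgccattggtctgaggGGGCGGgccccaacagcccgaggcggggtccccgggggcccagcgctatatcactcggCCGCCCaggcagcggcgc

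The 5 motifs searched on both strands were chosen with these sequences in view. One was TGANTCA, the letters of an AP-1 site, and a variant of it was TGAGTAA. The ETS core GGAA was searched only with a flank, as CAGGAA and as CCGGAA, so other GGAA matches are not marked or counted. The SP1 box was searched as GGGCGG. None of these motifs contains another. In TIMP1, TGAGTAA began 101 bases and CAGGAA 88 bases before the start. MMP15 held CAGGAA once, 167 bases before the start, and GGGCGG at 5 places, and TIMP3 held GGGCGG at 5 places. Of 35116 promoters in the table, 2.21% held TGAGTAA in the same window, 24.1% held CAGGAA and 42.6% held GGGCGG. No match in these windows was found for TGANTCA, held by 6.57% of promoters, or for CCGGAA, held by 14.5%. MMP14 was the remaining member with a promoter in the table, and its window held CAGGAA once and GGGCGG once.

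Depth ran from 8063754 to 42843612 reads per library, lowest in A375 tumours and highest in A375R tumours. The labels do not say whether replicates were grown or dosed apart, and p-values therefore cover the spread among libraries, possibly only a technical one. Chi-square per degree of freedom between replicates, a spread relative to counting error, was 1.75 and 1.77 in Colo800 and 1.3 to 12.5 in UACC62. It was 3.47 to 7.9 in H3122 and 5.82 to 32.2 in A375 culture. In A375 tumours it was 4.75 to 22.5, and in A375R tumours 11.1 to 52.8. Sizes of adjusted p are therefore not comparable between tables. In bulk RNA, fewer cells of a type and less RNA per cell cannot be told apart. Melanocyte markers summed to 6973 to 8229 normalised reads in A375 tumours under vemurafenib and 743 to 1145 under vehicle, where TYR and DCT were at 0. That sum was mostly SOX10, at 6369 to 7647 under vemurafenib and 574 to 916 under vehicle. MITF was higher too, at 555 to 584 under vemurafenib and 152 to 216 under vehicle, and DCT had 5.08 to 13.1 under vemurafenib. The pigment genes MLANA, PMEL and TYRP1 stayed at 11.6 reads or fewer in both groups, and TYR had at most 1.01 under vemurafenib. Lung epithelial markers summed to 77404 to 81851 in H3122 under crizotinib and 118876 to 139987 under vehicle, with SFTPC at 0. Most of that sum was keratins, KRT8 at 29116 to 30264 under crizotinib and 53445 to 62128 under vehicle, while NKX2-1, a lung lineage factor, went the other way, at 7244 to 7336 under crizotinib and 3149 to 3422 under vehicle. Melanocyte markers also summed higher under vemurafenib in Colo800 (169864 to 190421, against 55661 to 58938 under vehicle) and UACC62 (46143 to 52079, against 15962 to 16411), and in A375 culture they summed to 9077 to 11356 under vehicle, 6135 to 7557 at 6 h and 13027 to 15423 at 48 h. Their part in the results below was not tested.

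The members were called by limma on log2(normalised reads + 1) in each table, among genes with a mean of at least 10 reads, at an adjusted p under 0.05. At 6 h in A375, 0 of 7 tested members were higher and 1 was lower, beside 1.07% and 3.33% of all genes. The main fit left replicates unpaired. With replicate numbers as a block, since same-numbered libraries deviated together here, 1462 rather than 608 genes and 2 members, TIMP3 and MMP14, were called. At 48 h against vehicle, 4 members were higher and 3 lower of 7, against 24.3% and 25.6% of genes, and at 48 h against 6 h the counts were again 4 and 3, against 19.6% and 19.7%. In Colo800, 2 were higher and 5 lower of 8 (36% and 37.3% of genes). In UACC62, 3 were higher and 3 lower of 7 (26.9% and 29.6%). In H3122, 0 were higher and 6 lower of 8 (22.1% and 24%). In A375 tumours, 3 were higher and 4 lower of 9 (34.2% and 34%). With such large shares of all genes called, the number of members called says little by itself. In A375R tumours, 9 members were tested, and none was called for vemurafenib against vehicle in A375R alone (0.305% of genes higher, 0.487% lower), in mixed tumours (1.24% and 2.23%), for mixed against alone under vemurafenib (0.211% and 0.0291%) or for the interaction of drug and mixing (1.91% and 0.974%). Mixed against alone under vehicle gave 1 member higher and 0 lower (1.93% and 1.37%). Under 10 reads on average in the drug group were MMP1 in A375 and UACC62 cultures at 48 h, and MMP1, MMP9 and MMP13 in A375 tumours. The same held for MMP3 in Colo800 and MMP13 in H3122. They passed the filter through the other libraries, so the drug group had to be the lower. Neither their adjusted p nor any count over members is used as support.

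**Figure D1:**
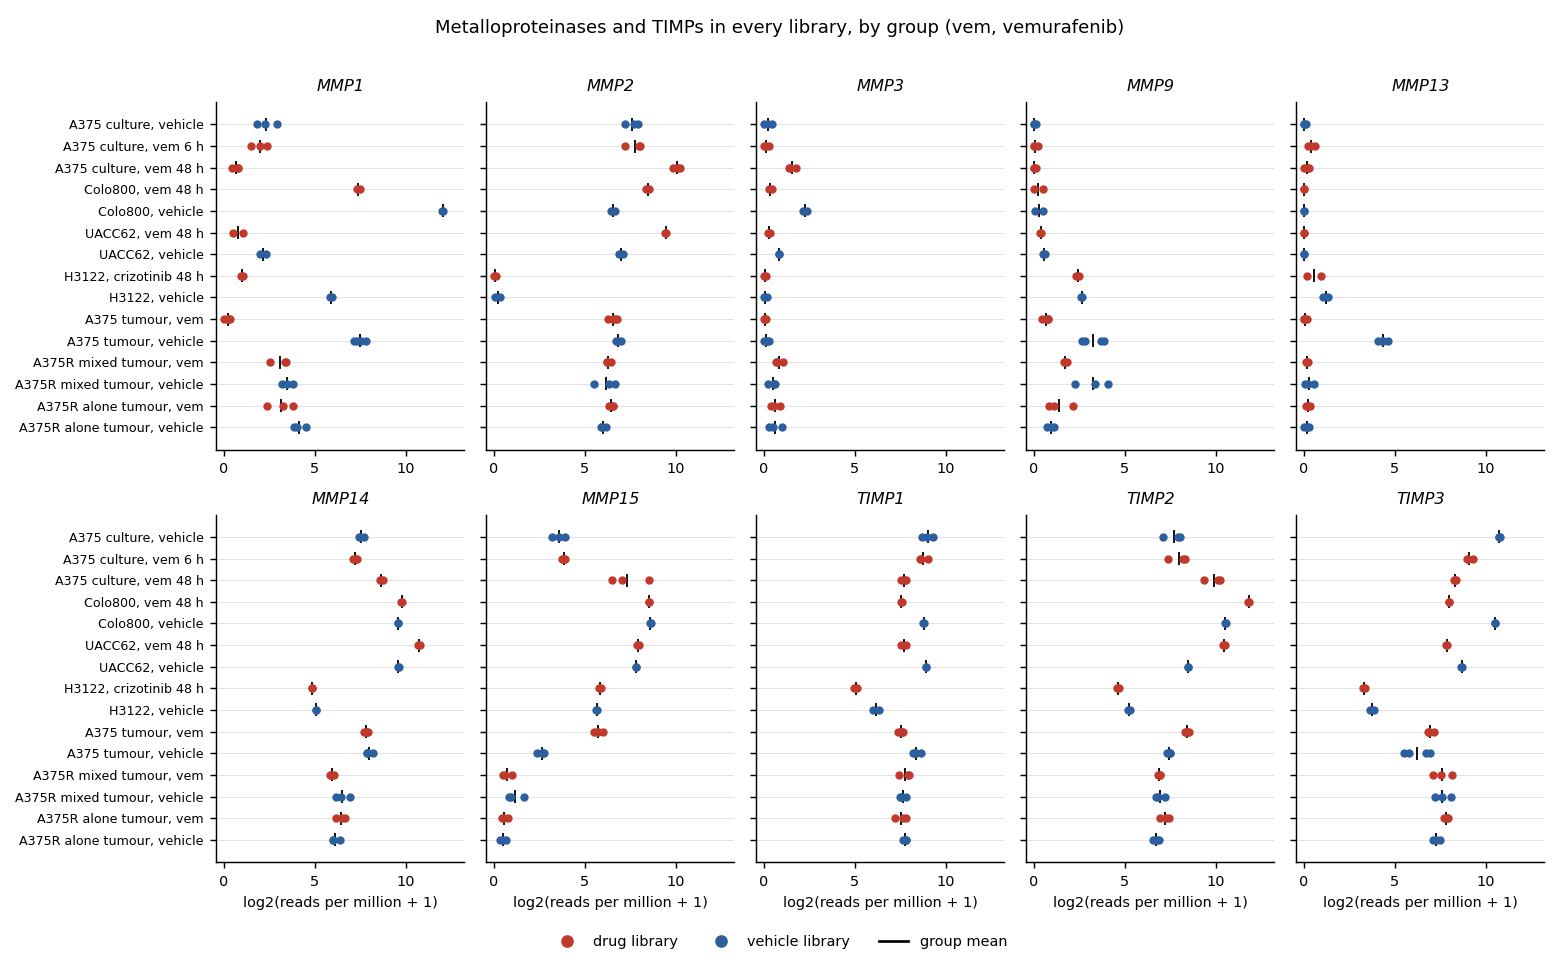
Level of each gene in every library, as log2(RPM + 1), where RPM stands for reads mapped to a gene scaled to a common library total, by group. Red points are drug libraries, blue points vehicle libraries, and black ticks group means. MMP1 spans the widest range, from 0.16 RPM in A375 tumours under vemurafenib to 4087 in Colo800 under vehicle, and MMP13 stands above 2 RPM in A375 tumours under vehicle alone.

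Among the collagenases, MMP1, which opens the triple helix of fibrillar collagens, was called lower under drug in A375, Colo800, UACC62 and H3122 at 48 h and in A375 tumours. Colo800 held the highest level and fell to 2079.9 and 2322 normalised reads under vemurafenib, against 58888 and 60856 under vehicle. The difference was -4.77 on the log2 scale (SE 0.05, n = 2 each), or 27.2-fold, with an adjusted p of 4.42e-22. Even after that fall, Colo800 kept more MMP1 in RPM than any UACC62, H3122, A375R or A375 culture group, 166 ± 13.6 (SD), a level overlapping that of A375 tumours under vehicle, 178 ± 36.1. In H3122, MMP1 had 12.1 and 14.4 reads under crizotinib and 852 and 819 under vehicle, a log2 difference of -5.88 (SE 0.16, adjusted p = 6.14e-10). In UACC62, where MMP1 was scarce, it had 12.4 and 5 reads under vemurafenib and 37.9 and 50.5 under vehicle (log2 difference -2.32, SE 0.42, adjusted p = 0.0015).

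A375 tumours showed the largest fitted fall of MMP1 among the comparisons made. Under vemurafenib the 4 libraries had 3.03, 0, 3.92 and 3.22 normalised reads, against 2056, 1906, 2374 and 3105 under vehicle. The groups lay far apart, and the fitted difference was -9.58 (SE 0.36, n = 4 each, adjusted p = 9.18e-13), or -8.30 with a pseudocount of 5. Here MMP1 passed the filter through the vehicle libraries, so it had to be lower under vemurafenib. Only 13 reads of MMP1 were counted over the 4 drug libraries and 9296 over the 4 vehicle libraries, a ratio of 1057 per library read (95% exact interval 618 to 1987, for counting error alone). A375 in culture held little MMP1, with 44.1, 29.3 and 79 reads under vehicle, 32.4, 19.4 and 46.8 at 6 h, and 7.44, 4.13 and 7.73 at 48 h. At 6 h the values overlapped vehicle (log2 difference -0.58, SE 0.43, adjusted p = 0.557), though each lay below the vehicle library of the same number. At 48 h all 3 lay below both other groups (-2.72 against vehicle, SE 0.43, adjusted p = 4.71e-04). In A375R alone, MMP1 had 135, 403 and 270.2 reads under vemurafenib and 789, 539 and 509 under vehicle. All drug libraries lay below all vehicle libraries, but the difference of -1.29 (SE 0.32) did not pass (adjusted p = 0.0648), and passed with those groups fitted alone (adjusted p = 0.0350). In mixed tumours MMP1 had 332, 169 and 329 reads under vemurafenib and 364, 345 and 249 under vehicle, with overlapping groups (-0.25, SE 0.32, adjusted p = 0.718).

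MMP13, or collagenase 3, was abundant only in A375 tumours under vehicle among the 15 groups. It had 0, 2.03, 0.785 and 0 normalised reads in A375 tumours under vemurafenib and 242, 215, 253 and 326 under vehicle. The drug libraries held 3 reads in all and the vehicle libraries 1009, a ratio of 497 per library read (95% exact interval 170 to 2416, counting error alone). The fitted difference was -7.40 (SE 0.33, adjusted p = 7.81e-12) and ranged from -8.69 with DESeq2 to -5.53 with a pseudocount of 5. There MMP13 passed the filter through the vehicle libraries, so it had to be lower under vemurafenib. MMP13 had 5.71 reads or fewer in every A375 culture library and 13.7 or fewer in every A375R library, and was not tested there. In Colo800 and UACC62 no read was counted in any library, which allows at most 0.129 RPM in the shallowest group at 3 reads per group. H3122 had 2.01 and 12.3 reads under crizotinib and 15.7 and 22.5 under vehicle. That difference passed at -1.65 (SE 0.60, adjusted p = 0.0407). It rested on crizotinib replicate 1, without which it was -0.58 (adjusted p = 0.330), and it was lost with no filter (adjusted p = 0.181) and with DESeq2 (adjusted p = 0.173).

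MMP1, MMP3 and MMP13 lie in the metalloproteinase cluster of chromosome 11, where RefSeq orders the genes as MMP7, MMP20, MMP27, MMP8, MMP10, MMP1, MMP3, MMP12 and MMP13. Of these 9 genes 4 passed the filter in A375 tumours, where 3 were lower and 1 higher (all genes 34% and 34.2%). In H3122 4 passed, and all 4 were lower (all genes 24%). In Colo800 the 3 tested were lower, and in UACC62 the 2 tested were lower (all genes 37.3% and 29.6%). The 4 in A375 tumours averaged under 10 reads in 1 group and passed the filter through the other. So did MMP7 and MMP13 in H3122, MMP3 in Colo800 and MMP1 in UACC62, each through vehicle. The counts of the cluster in these tables are therefore not used as support. MMP10, stromelysin-2, was lower by -4.66 in A375 tumours (SE 0.42, adjusted p = 4.81e-08) and by -3.27 in H3122 (SE 0.22, adjusted p = 4.17e-07). MMP8, the neutrophil collagenase, was higher in A375, at 2.52 in culture at 48 h (SE 0.41, adjusted p = 5.77e-04) and 3.92 in tumours (SE 0.47, adjusted p = 1.28e-06). In A375 tumours MMP8 had 12.2 to 25.4 reads under vemurafenib and 0 to 1.46 under vehicle, and MMP10 had 0 to 0.785 under vemurafenib and 20.8 to 34.1 under vehicle, so each passed the filter through the group where it was high and had to differ. MMP8 was lower in Colo800, at -1.23 (SE 0.10, adjusted p = 2.16e-09), and in UACC62, at -2.75 (SE 0.23, adjusted p = 1.78e-05).

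The pseudogene WTAPP1, listed as LOC100288077, overlaps MMP1 and MMP3 in RefSeq, and reads of overlapping genes cannot be told apart by strand in these libraries. In Colo800 it had 441 to 494 normalised reads under vemurafenib and 12392 to 12638 under vehicle. Its ratio to MMP1 was 0.212 to 0.213 under vemurafenib and 0.208 to 0.210 under vehicle. In A375 tumours it had 1.01 to 6.43 reads under vemurafenib and 305 to 493 under vehicle, and in H3122 2.01 to 5.13 under crizotinib and 142 to 169 under vehicle. In all A375R libraries it stayed at 2.39 reads or fewer, at most 0.0114 of MMP1. WTAPP1 moved with MMP1 in the first tables and its share of the MMP1 values was not tested. The partners listed for the TIMP genes were far lower, with SYN1, which overlaps TIMP1, at 29 reads at most, CEP295NL, which overlaps TIMP2, at 9.05, and SYN3, which overlaps TIMP3, at 68, or at most 0.0322 of TIMP3.

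**Figure D2:**
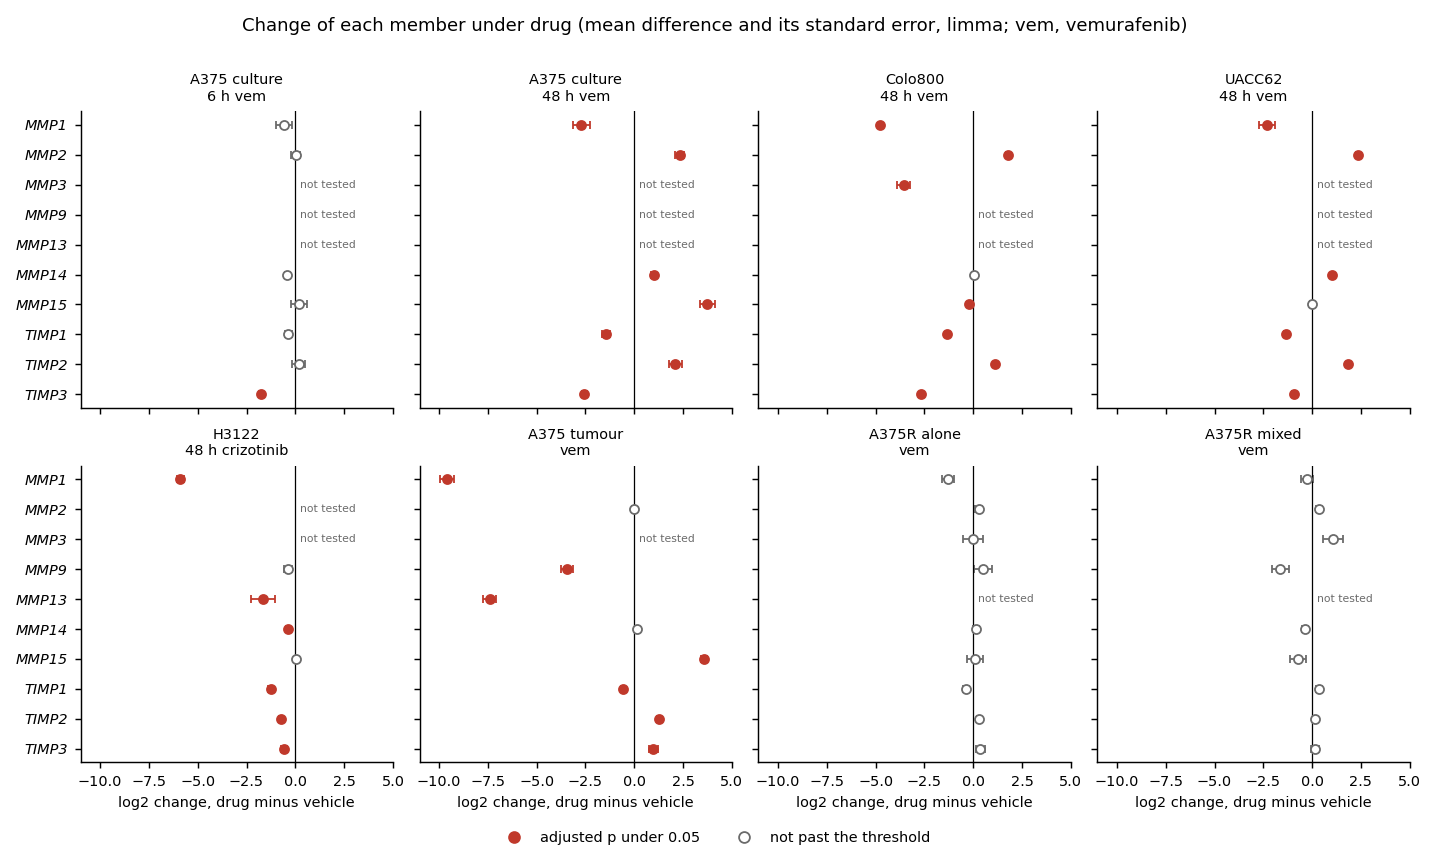
Log2 difference of each gene, drug minus vehicle, with its standard error, in 8 drug comparisons. Filled points passed an adjusted p of 0.05 and open points did not. MMP1 lies left of 0 in all 8 panels, with filled points in 5 of them, while MMP2 and TIMP2 lie right of 0 with filled points in the 3 melanoma cultures at 48 h.

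MMP3, stromelysin-1, which cuts proteoglycans and activates other metalloproteinase precursors, was low in every group. Colo800 had 3.04 and 4.79 normalised reads under vemurafenib and 61.3 and 51.8 under vehicle. The fall was -3.57 on the log2 scale (SE 0.34, adjusted p = 2.16e-08), or -2.79 with a pseudocount of 5. In that line MMP3 passed the filter through the vehicle libraries, so it had to be lower under vemurafenib. UACC62 had 2.07 and 3 reads under vemurafenib and 10.2 and 10.3 under vehicle, below the filter. In A375 culture the values were 4.2, 0 and 1.88 under vehicle, 0.983, 2.53 and 0 at 6 h, and 17.4, 18.6 and 25.4 at 48 h. The 3 libraries at 48 h lay above the rest, but the gene fell short of the filter and was not tested. In mixed A375R tumours MMP3 had 38.1, 20.7 and 22.9 reads under vemurafenib and 5.46, 19.1 and 15.8 under vehicle, a difference of 1.07 (SE 0.53) that did not pass (adjusted p = 0.270).

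Of the gelatinases, MMP2, which cuts denatured collagen and basement membrane collagen, rose in the 3 melanoma cultures at 48 h and was not called in A375 tumours. In A375 culture it had 1697, 2779.9 and 2427 normalised reads under vehicle, 1576, 2737 and 2775 at 6 h, and 9479, 12057 and 12552 at 48 h. The 6 h values overlapped vehicle (0.02, SE 0.24, adjusted p = 0.980), and those at 48 h were 5.00-fold higher than vehicle (log2 difference 2.32, SE 0.24, n = 3 each, adjusted p = 3.11e-05). UACC62 had 7969 and 8383 reads under vemurafenib and 1527 and 1719.9 under vehicle, a 5.04-fold rise (2.33, SE 0.10, adjusted p = 2.92e-07). Colo800 had 4399.7 and 4746 under vemurafenib and 1465 and 1237 under vehicle, a 3.39-fold rise (1.76, SE 0.06, adjusted p = 9.85e-15). Doses were 0.1 uM in A375 and 1 uM in the other lines, so sizes are given side by side without a comparison. In A375 tumours MMP2 had 1248, 1594, 1710.2 and 1397 reads under vemurafenib and 1446, 1658, 1399 and 1447 under vehicle, with overlapping groups (-0.01, SE 0.09, adjusted p = 0.947). H3122 had at most 3.93 reads in a library, so MMP2 was not tested there. In A375R tumours, library values ran from 2462 to 3039.7 in mixed tumours and 2560.0 to 2951 in A375R alone under vemurafenib, and from 1468 to 2766 in mixed tumours and 2123 to 2628 in A375R alone under vehicle, and no comparison passed (adjusted p from 0.278 upwards).

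MMP9, the second gelatinase, known in leukocytes as well as tumour cells, was highest in mixed A375R tumours under vehicle and in A375 tumours under vehicle. In A375 tumours it had 12.1, 10.2, 11 and 5.79 normalised reads under vemurafenib and 157, 70.5, 79.9 and 182 under vehicle. All drug libraries lay below all vehicle libraries, at -3.44 (SE 0.30, n = 4 each, adjusted p = 2.98e-08). MMP9 passed the filter there through the vehicle libraries, so it had to be lower under vemurafenib. In mixed A375R tumours it had 78.7, 77.1 and 93.3 reads under vemurafenib and 439, 131 and 294 under vehicle. In A375R alone it had 112, 38.3 and 25.1 reads under vemurafenib and 43.6, 23.8 and 35.7 under vehicle. Under vehicle, mixed tumours stood above A375R alone without overlap, at 2.91 (SE 0.45, n = 3 each, adjusted p = 0.0015), a 7.50-fold difference. It was the 1 A375R member result to pass, and it held under each alternative run. The fall under vemurafenib in mixed tumours, -1.62 (SE 0.45), did not pass (adjusted p = 0.0547), but passed with edgeR (adjusted p = 0.0274) and DESeq2 (adjusted p = 0.0361), and without mixed vehicle replicate 2 it was -2.10 (adjusted p = 0.0214). The interaction of drug and mixing was -2.13 (SE 0.63, adjusted p = 0.0759), and passed with edgeR (adjusted p = 0.0410) and DESeq2 (adjusted p = 0.0384).

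In A375R tumours under vehicle, 12 leukocyte markers summed to 3418 to 5069 normalised reads in mixed tumours and 7594 to 9784 in A375R alone, and PTPRC and S100A8 were at 0 in mixed tumours. Nearly all of these sums was CD68, which A375 cells in culture also gave, at 329 to 869 under vehicle. Of the other markers, LYZ had 31.1 to 55.4 reads in mixed tumours and 11.2 to 14.0 in A375R alone, ITGAM had 9.11 to 14.95 in mixed tumours and 3.36 to 5.75 in A375R alone, and S100A9 had 3.64 to 14.1 in mixed tumours and 13.1 to 28.6 in A375R alone. The part of leukocytes in the MMP9 difference was not tested. Fibroblast markers summed to 1763 to 2844 in mixed tumours and 2203 to 2336 in A375R alone. Under vemurafenib the leukocyte sums were 5118 to 8315 in mixed tumours and 3851 to 6008 in A375R alone. In A375 tumours leukocyte markers summed to 662 to 1039 under vemurafenib and 626 to 830 under vehicle, with MPO and S100A8 at 0 in both groups. CD68 made up most of these sums as well, while CSF1R had 5.08 to 9.01 reads under vemurafenib and 78.6 to 129.5 under vehicle, and S100A9 had 0 under vemurafenib and 0 to 7.28 under vehicle. H3122 had 61.4 and 53.3 reads of MMP9 under crizotinib and 72.8 and 76.3 under vehicle, without overlap (-0.38, SE 0.18, adjusted p = 0.116), and this passed after quantile normalisation (-0.55, adjusted p = 0.0316). A375, Colo800 and UACC62 cultures had at most 7.22 reads in a library.

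MMP14, a membrane-anchored metalloproteinase that activates the MMP2 precursor, was higher in UACC62 and in A375 culture at 48 h and lower in H3122, and the difference between lines was not tested. UACC62 had 20694 and 19417 normalised reads under vemurafenib and 9625 and 9982 under vehicle, a 2.04-fold rise (1.03, SE 0.09, adjusted p = 1.61e-05). Colo800 had 11294 and 11531 under vemurafenib and 11002 and 10838 under vehicle, a small step that did not pass (0.06, SE 0.04, adjusted p = 0.150) but passed after quantile normalisation (0.28, adjusted p = 1.91e-05). In A375 culture MMP14 had 1951, 2007 and 2444 reads under vehicle, 1486, 1609 and 1721 at 6 h, and 3961, 4171 and 4603 at 48 h. The 6 h libraries lay below vehicle and those at 48 h above it. The step at 6 h was -0.41 (SE 0.12, adjusted p = 0.0913), and it passed with the replicate block (adjusted p = 0.0153) and with DESeq2 (adjusted p = 0.0338). At 48 h the difference was 1.00 against vehicle (SE 0.12, adjusted p = 8.07e-05) and 1.40 against 6 h (SE 0.12, adjusted p = 2.03e-05). H3122 had 371 and 364 reads under crizotinib and 468 and 478 under vehicle (-0.36, SE 0.10, adjusted p = 0.0103). That call was lost with DESeq2 (adjusted p = 0.0569), without crizotinib replicate 1 (adjusted p = 0.0704) and without crizotinib replicate 2 (adjusted p = 0.0928). A375 tumours had 3829, 3529, 3851 and 3196 reads under vemurafenib and 3019, 3129, 3095 and 3985 under vehicle. The groups overlapped through vehicle replicate 4 (0.13, SE 0.09, adjusted p = 0.226), without which the difference was 0.22 (adjusted p = 0.0224). In mixed A375R tumours MMP14 had 2243, 2012 and 2129 reads under vemurafenib and 3397, 2893 and 2168 under vehicle (-0.38, SE 0.15, adjusted p = 0.174), and without mixed vehicle replicate 3 the difference was -0.56 (adjusted p = 0.0447).

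MMP15, the other membrane-anchored member, rose in A375, in culture at 48 h and in tumours. It had 163, 96.5 and 128 normalised reads under vehicle, 149, 142 and 138 at 6 h, and 3770.5, 951 and 1384 at 48 h. At 6 h the groups overlapped (0.18, SE 0.40, adjusted p = 0.877), and at 48 h the rise over vehicle was 3.75 (SE 0.40, n = 3 each, adjusted p = 3.94e-05), or 13.4-fold, with replicate 1 well above the others. In A375 tumours it had 1059, 826, 776 and 679 reads under vemurafenib and 68.9, 73.6, 55 and 80.1 under vehicle. That rise was 3.56 (SE 0.14, n = 4 each, adjusted p = 1.30e-12), or 11.8-fold, without overlap. Colo800 had 4779 and 4799 under vemurafenib and 5701 and 5577 under vehicle, a fall of -0.24 (SE 0.04, adjusted p = 2.78e-05) that quantile normalisation reduced to -0.04 (adjusted p = 0.306). UACC62 had 2962 and 2719 under vemurafenib and 2879.5 and 2842 under vehicle (-0.01, SE 0.09, adjusted p = 0.924), and H3122 had 774 and 691 under crizotinib and 686 and 723 under vehicle (0.06, SE 0.10, adjusted p = 0.663). A375R libraries held 60.1 reads or fewer, and under vehicle mixed tumours lay above A375R alone (1.23, SE 0.42) without passing (adjusted p = 0.120).

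**Figure D3:**
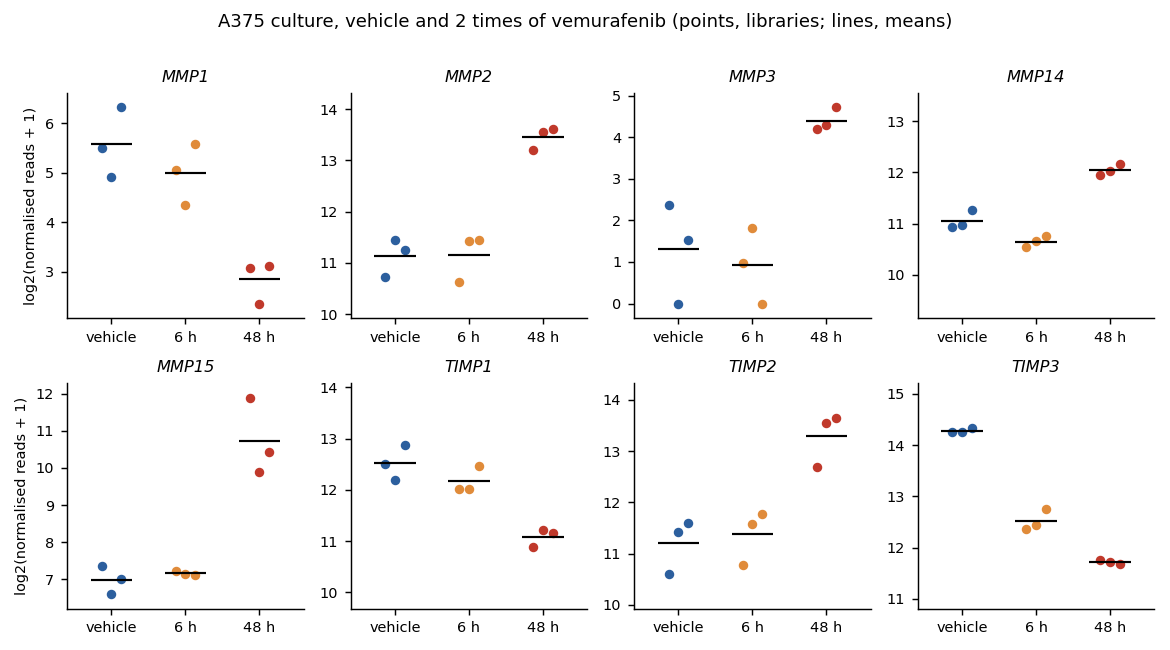
Genes of A375 culture as log2(normalised reads + 1) under vehicle and after 6 h and 48 h of vemurafenib. Points are libraries and lines means. TIMP3 is already lower at 6 h. MMP2, MMP14, MMP15 and TIMP2 have all libraries above all vehicle libraries at 48 h and not at 6 h.

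TIMP1, a secreted inhibitor of most metalloproteinases but weak against membrane-anchored ones, was called lower at 48 h in all 4 lines in culture and in A375 tumours. A375 culture had 5847, 4714 and 7539.6 normalised reads under vehicle, 4162, 4134 and 5631 at 6 h, and 1886, 2391 and 2289 at 48 h. The groups overlapped at 6 h (-0.37, SE 0.19, adjusted p = 0.350), though each 6 h library lay below the vehicle library of the same number. At 48 h the fall was -1.44 (SE 0.19, adjusted p = 1.20e-04), or 2.72-fold. Colo800 had 2465 and 2483 under vemurafenib and 6215 and 6498 under vehicle (-1.36, SE 0.04, adjusted p = 1.07e-15). UACC62 had 2614 and 2207 under vemurafenib and 6167 and 6025 under vehicle (-1.34, SE 0.10, adjusted p = 1.07e-05). H3122 had 443 and 400.1 under crizotinib and 889 and 1143 under vehicle (-1.26, SE 0.12, adjusted p = 7.25e-06). In A375 tumours the values were 2753, 3141, 3029 and 2709 under vemurafenib and 4033, 4416, 3695 and 5406 under vehicle (-0.58, SE 0.10, adjusted p = 6.69e-05), without overlap. Whether the step differed between culture and tumour was not tested. In mixed A375R tumours TIMP1 had 8479.9, 6022 and 8621 reads under vemurafenib and 6261, 6198 and 5551 under vehicle. In A375R alone it had 4732, 6188 and 7104 under vemurafenib and 8076, 7682 and 7441 under vehicle, without overlap. Neither drug comparison passed, and the interaction of 0.73 (SE 0.21) did not either (adjusted p = 0.0675). It passed with DESeq2 (adjusted p = 0.0178), without replicate 3 of A375R alone under vemurafenib (0.86, adjusted p = 0.0369) and without replicate 2 of mixed tumours under vemurafenib (0.90, adjusted p = 0.0352).

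TIMP2, which blocks metalloproteinases and also bridges the MMP2 precursor to MMP14 on the cell surface, rose in the melanoma lines and fell in H3122. A375 culture had 1561, 2730.0 and 3113 normalised reads under vehicle, 1759, 3057 and 3516 at 6 h, and 6659, 12035 and 12781 at 48 h. At 48 h all libraries lay above vehicle by 2.09 (SE 0.33, adjusted p = 4.75e-04), or 4.26-fold. The 6 h values overlapped vehicle (0.17, SE 0.33, adjusted p = 0.856), though each lay above the vehicle library of the same number. Colo800 had 47159.5 and 46095 reads under vemurafenib and 21604 and 20878 under vehicle (1.13, SE 0.04, adjusted p = 2.94e-14). UACC62 had 15839 and 16819 under vemurafenib and 4533 and 4534 under vehicle (1.85, SE 0.08, adjusted p = 5.05e-07). A375 tumours had 5512, 5627, 4916 and 5511 under vemurafenib and 2328, 2327, 2019.9 and 2317 under vehicle, a 2.40-fold rise (1.26, SE 0.07, adjusted p = 2.21e-10). H3122 had 328 and 297 under crizotinib and 502 and 543 under vehicle (-0.74, SE 0.11, adjusted p = 1.77e-04). A375R libraries ran from 3264 to 5423 reads over the 4 groups, and no comparison passed.

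TIMP3, which stays bound to the matrix and also blocks ADAM proteases, was the 1 member called at 6 h. A375 culture had 19514, 19526 and 20768 normalised reads under vehicle, 5269, 5557 and 6916 at 6 h, and 3452, 3384 and 3262 at 48 h. The 3 groups did not overlap. The fall was -1.76 at 6 h (SE 0.12, n = 3 each, adjusted p = 2.48e-05), -2.57 at 48 h against vehicle (SE 0.12, adjusted p = 4.52e-07) and -0.80 at 48 h against 6 h (SE 0.12, adjusted p = 5.10e-04). Colo800 had 3295 and 3334 reads under vemurafenib and 21106 and 20791 under vehicle, a 6.32-fold fall (-2.66, SE 0.04, adjusted p = 4.80e-20). UACC62 had 2629 and 2770.4 under vemurafenib and 5051 and 5327 under vehicle (-0.94, SE 0.09, adjusted p = 3.47e-05). H3122 had 116 and 124 under crizotinib and 162 and 199 under vehicle (-0.58, SE 0.15, adjusted p = 0.0073). In A375 tumours the direction was the opposite, with 1977, 2244, 1768 and 1759 reads under vemurafenib and 1342, 1633, 579.7 and 738 under vehicle. All drug libraries lay above all vehicle libraries, at 0.97 (SE 0.23, n = 4 each, adjusted p = 0.0012), and the vehicle libraries were spread widely. Fibroblast markers summed to 1081 to 1270 normalised reads in A375 tumours under vemurafenib and 1435 to 1857 under vehicle. Single markers went both ways, with COL3A1 at 307.7 to 349 under vemurafenib and 32.0 to 98.6 under vehicle, and PDGFRB at 163 to 182 under vemurafenib and 429 to 559.6 under vehicle, and their part in the TIMP3 difference was not tested. SYN3, in whose span TIMP3 lies, was 36 to 68 under vemurafenib and 8.65 to 19.2 under vehicle, at most 0.0322 of TIMP3. In A375R tumours TIMP3 ran from 4515 to 10006 reads, the widest spread being among mixed tumours under vemurafenib, and no comparison passed.

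**Figure D4:**
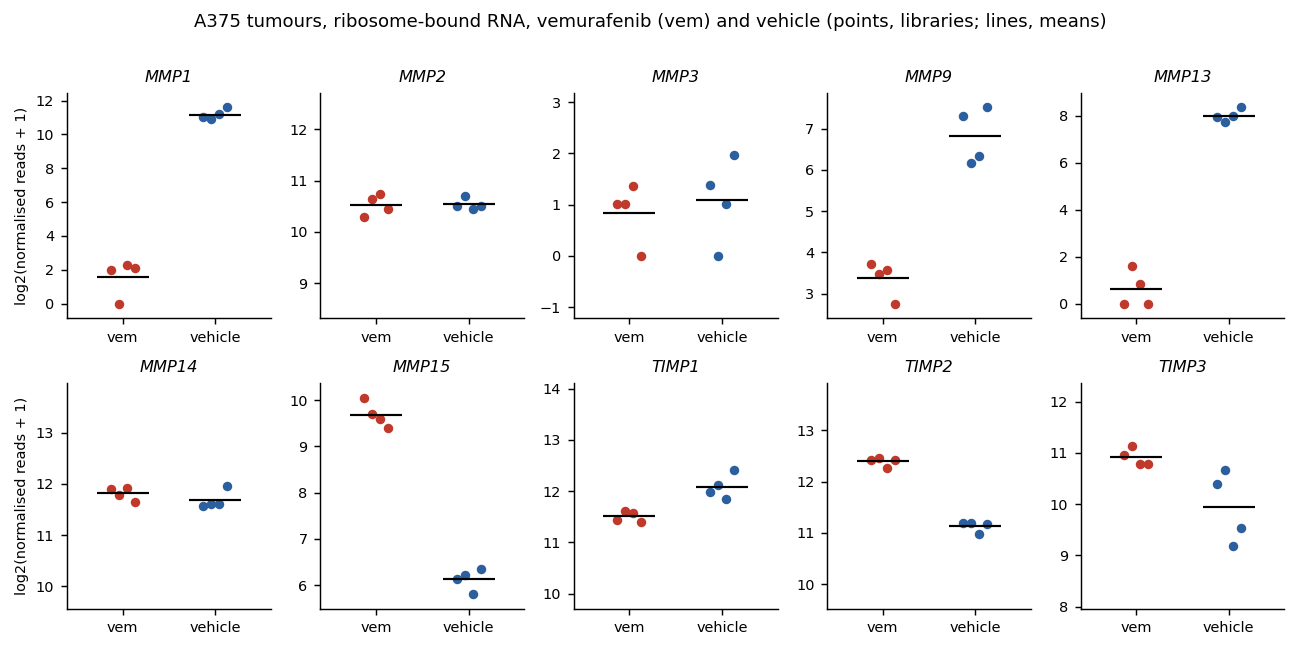
All 10 genes in A375 tumours, as log2(normalised reads + 1), under vemurafenib (left in each panel) and vehicle (right). Points are libraries and lines means. MMP1, MMP9 and MMP13 are lower under vemurafenib, MMP15, TIMP2 and TIMP3 are higher, and MMP2 and MMP14 overlap.

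**Figure D5:**
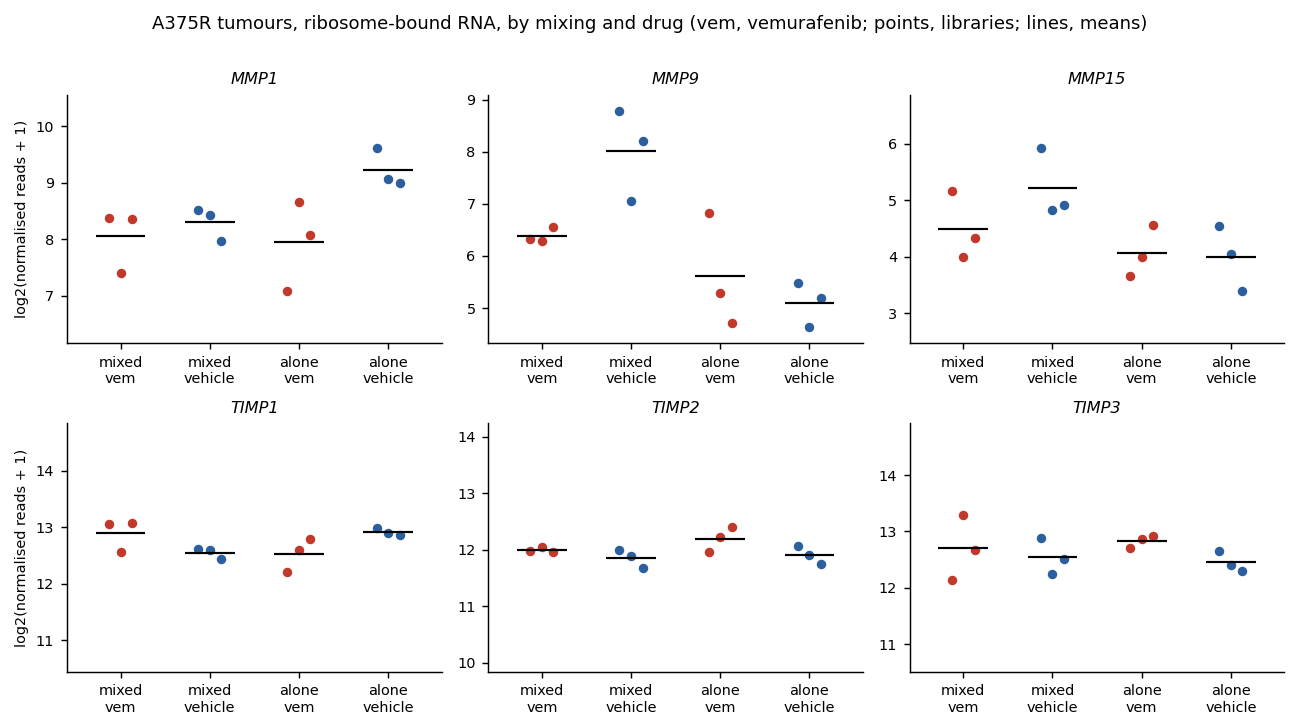
MMP1, MMP9, MMP15, TIMP1, TIMP2 and TIMP3 in A375R tumours, as log2(normalised reads + 1), in mixed tumours and in A375R alone, each under vemurafenib (vem) and vehicle. Points are libraries and lines means. MMP9 in mixed tumours under vehicle stands above A375R alone under vehicle, and TIMP1 in A375R alone lies lower under vemurafenib than under vehicle, without passing the test.

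Across lines, levels were set side by side in RPM as a description, since each table was normalised on its own and levels of different genes are not compared. MMP2 ran from 1065 ± 137 (SD) in A375 culture at 48 h to 0.0392 ± 0.0554 in H3122 under crizotinib. MMP14 was highest in UACC62 under vemurafenib, 1692 ± 77.4, and lowest in H3122 under crizotinib, 27.8 ± 0.0138. MMP15 was highest in Colo800 under vehicle, 385 ± 4.64, and lowest in A375R alone under vehicle, 0.436 ± 0.176. TIMP2 was highest in Colo800 under vemurafenib, 3523 ± 43.8, and lowest in H3122 under crizotinib, 23.7 ± 1.34. TIMP1 varied least among the TIMPs, from 515 ± 113 in A375 culture under vehicle, overlapping UACC62 under vehicle at 473 ± 5.45, to 31.9 ± 1.89 in H3122 under crizotinib. TIMP3 was highest in A375 culture under vehicle, 1705 ± 34.5, and lowest in H3122 under crizotinib, 9.08 ± 0.562. MMP9 reached 9.71 ± 5.96 in mixed A375R tumours under vehicle, overlapping A375 tumours under vehicle at 9.21 ± 4.06.

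The remaining family genes, 16 metalloproteinases and TIMP4, passed the filter in small number. At 48 h in A375 culture 6 were higher and 1 lower of 7 tested, with a median log2 difference of 1.77, where the median over all genes lay between -0.02 and 0.01 in every comparison. All genes gave 24.3% higher and 25.6% lower in A375 culture at 48 h. In A375 tumours 7 were higher and 1 lower of 9 tested (all genes 34.2% and 34%), with a median of 2.297. There MMP8, MMP10 and MMP17 averaged under 10 reads in 1 group and passed the filter through the other, so this count and median are not used as support. Colo800 had 4 higher and 3 lower of 7 (36% and 37.3%), UACC62 4 higher and 2 lower of 7 (26.9% and 29.6%), and H3122 3 higher and 3 lower of 8 (22.1% and 24%). At 6 h, and in each A375R comparison, 0 were called, where at most 3.33% of all genes were called in a direction. MMP19 was higher in the melanoma cultures at 48 h and in A375 tumours, at 1.77 in A375 culture (SE 0.16), 2.13 in Colo800 (SE 0.14), 2.01 in UACC62 (SE 0.20) and 2.297 in A375 tumours (SE 0.12). In H3122 MMP19 was at 1.04 (SE 0.30, adjusted p = 0.0141), which was lost with DESeq2 (adjusted p = 0.0704), with no filter (adjusted p = 0.0781) and without crizotinib replicate 2 (0.72, adjusted p = 0.141). MMP16, another membrane-anchored member, was lower in A375 culture at 48 h (-0.83, SE 0.18), Colo800 (-3.15, SE 0.12) and UACC62 (-4.14, SE 0.17). In A375 tumours MMP16 had 852 to 1420.3 reads under vemurafenib and 483 to 589 under vehicle, without overlap and higher under drug.

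AP-1 and ETS factors are known regulators of several metalloproteinase genes. Of 15 such genes tested, 1 was higher and 7 lower at 6 h in A375 (all genes 1.07% and 3.33%), and 4 were higher and 10 lower at 48 h (24.3% and 25.6%), with medians of -0.88 and -0.51. Colo800 had 4 higher and 10 lower of 15 (36% and 37.3%), UACC62 6 higher and 7 lower of 15 (26.9% and 29.6%), A375 tumours 4 higher and 8 lower of 15 (34.2% and 34%), and H3122 0 higher and 11 lower of 16 (22.1% and 24%). JUN, an AP-1 subunit, was higher, at 3.01 in A375 at 48 h (SE 0.30, adjusted p = 2.77e-05), 2.69 in Colo800 (SE 0.06), 4.57 in UACC62 (SE 0.10) and 2.36 in A375 tumours (SE 0.13). In H3122 JUN overlapped between groups, at 350.8 to 412 reads under crizotinib and 388 to 419 under vehicle. ETV4, an ETS factor, was lower, at -5.71 in A375 at 48 h (SE 0.21, adjusted p = 2.34e-07), -5.50 in Colo800 (SE 0.08), -5.98 in UACC62 (SE 0.15) and -1.73 in H3122 (SE 0.10). In A375 tumours ETV4 had 195 to 559 reads under vemurafenib and 2765 to 3350 under vehicle. FOSL1, the AP-1 subunit FRA1, was lower in A375 tumours at -1.93 (SE 0.11, adjusted p = 1.26e-10). H3122 had 28.2 to 32.8 reads of FOSL1 under crizotinib and 203 to 212 under vehicle. The AP-1 subunits FOS and FOSB went the other way in A375 tumours, at 865 to 1932 and 399 to 928 under vemurafenib. Under vehicle they had 89.1 to 802 and 23.9 to 212. In mixed against alone A375R tumours under vehicle, 0 of 15 were called. All genes gave 1.93% higher and 1.37% lower there, so this count says little. The part of these factors in the MMP9 difference was not tested.

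Genes that activate, induce or inhibit metalloproteinases gave 6 higher and 3 lower of 13 at 48 h in A375 culture, where 24.3% and 25.6% of all genes were called, and 5 higher and 4 lower of 14 in A375 tumours, near the 34.2% and 34% of all genes. They gave 4 higher and 8 lower of 14 in Colo800, 3 higher and 4 lower of 13 in UACC62, and 2 higher and 10 lower of 16 in H3122, where all genes gave 36% and 37.3%, 26.9% and 29.6%, and 22.1% and 24%. PCSK5 and PCSK6, proprotein convertases, were higher in A375 at 48 h, at 3.48 (SE 0.34) and 3.81 (SE 0.26), while in Colo800 PCSK6 had 420.2 to 528 reads under vemurafenib and 611 to 618 under vehicle. PLAUR, the urokinase receptor, was lower at 6 h (-1.92, SE 0.24, adjusted p = 0.0012) and in A375 tumours (-3.20, SE 0.10, adjusted p = 1.69e-13). PLAT and PLAU, the plasminogen activators, were lower in H3122 at -4.16 (SE 0.09) and -3.27 (SE 0.09). A2M, a broad protease inhibitor, was higher in mixed than in alone A375R tumours under vehicle (3.86, SE 0.51, adjusted p = 5.46e-04), and in Colo800 it had 237 to 291 reads under vemurafenib and 978 to 1097 under vehicle.

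Of matrix proteins that metalloproteinases cut, 5 were higher and 3 lower of 13 in A375 culture at 48 h, 5 higher and 7 lower of 15 in A375 tumours, 4 higher and 5 lower of 11 in Colo800, 4 higher and 3 lower of 13 in UACC62 and 1 higher and 4 lower of 11 in H3122, to be read against the shares of all genes just given. FN1, fibronectin, was lower in A375 tumours (-3.55, SE 0.18, adjusted p = 3.81e-11) and higher in H3122 (1.14, SE 0.09, adjusted p = 1.60e-06). In mixed A375R tumours FN1 was higher under vemurafenib (1.04, SE 0.24, adjusted p = 0.0261), a call lost after quantile normalisation (adjusted p = 0.0802), without mixed vemurafenib replicate 3 (adjusted p = 0.0932) and without mixed vehicle replicate 1 (adjusted p = 0.0504), 2 (adjusted p = 0.0540) or 3 (adjusted p = 0.0672). TNC, tenascin C, was lower in Colo800 (-3.17, SE 0.04), UACC62 (-3.92, SE 0.17) and H3122 (-2.18, SE 0.10), while A375 tumours had 1376 to 2089 reads of TNC under vemurafenib and 1073 to 1314 under vehicle, higher under drug without overlap. TNC was also higher in mixed than in alone A375R tumours under vehicle (1.40, SE 0.33, adjusted p = 0.0301), a call lost without mixed replicate 1 (adjusted p = 0.122) or alone replicate 1 (adjusted p = 0.1296), 2 (adjusted p = 0.0504) or 3 (adjusted p = 0.121). COL1A1, the main chain of type I collagen, was higher under vemurafenib in mixed A375R tumours (0.88, SE 0.17, adjusted p = 0.0090) and in A375R alone (1.08, SE 0.17, adjusted p = 0.0191). The call in A375R alone was lost without replicate 1 (adjusted p = 0.0927) or 3 (adjusted p = 0.127) of the vehicle group, or replicate 1 (adjusted p = 0.0602) or 2 (adjusted p = 0.0805) of the vemurafenib group. In H3122 COL1A1 had 613 to 793 reads under crizotinib and 934 to 967 under vehicle. Among the related ADAM and ADAMTS proteases, 18 were tested in A375 culture at 48 h, with 6 higher and 2 lower (all genes 24.3% and 25.6%). In A375 tumours 18 were tested, with 4 higher and 7 lower (34.2% and 34%). Colo800 had 6 higher and 9 lower of 18 (36% and 37.3%), UACC62 5 higher and 5 lower of 13 (26.9% and 29.6%), and H3122 3 higher and 5 lower of 14 (22.1% and 24%). ADAMTS1 was lower at 6 h in A375 (-3.28, SE 0.19, adjusted p = 1.39e-05), at 48 h (-3.06, SE 0.19), in Colo800 (-2.78, SE 0.07) and in UACC62 (-3.07, SE 0.10). In A375 tumours ADAMTS1 had 161 to 289.6 reads under vemurafenib and 105 to 154 under vehicle, higher under drug without overlap. Its A375R interaction of drug and mixing was 1.58 (SE 0.31, adjusted p = 0.0212), and 5 of the 12 fits with 1 library left out lost that call, with adjusted p up to 0.0643.

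Likeness of pattern was described by Pearson's r over the 15 group means of log2(RPM + 1), among 12712 genes, and these points share tables, libraries and controls. MMP1 was most like the overlapping WTAPP1 (r = 0.922), then LAPTM5 (r = 0.890) and MESDC1 (r = 0.871). MMP2 was most like PLTP (r = 0.984), MMP9 like PRDM1 (r = 0.870) and MMP13 like HMP19 (r = 0.983) and CHI3L1 (r = 0.981). MMP13 averaged 19.5 RPM in A375 tumours under vehicle and at most 1.33 in any other group, so its r rests mostly on that group. MMP14 was most like FYN (r = 0.984), MMP15 like KREMEN1 (r = 0.972), TIMP1 like FAM86DP (r = 0.936) and TIMP3 like CSPG4 (r = 0.945).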

How the data were processed

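RNA sequencing libraries of the TruSeq RNA v2 kit, which keeps no strand, were deposited by the authors as 6 tables of gene-level signal, read counts divided by a size factor of each library. Tools listed there, per the submitters' processing notes, were DESeq 1.18.0, HTSeq 0.5.4 and STAR 2.3.0e, with builds hg19 and mm9 and no role for any of them. The sources used here do not give how mouse reads were treated. Low values were whole multiples of 1 read in each library, so reads were recovered, and 100% of values came out whole at a tolerance of 0.1. Each table was fitted with limma 3.58.1 in R 4.3.3 on log2(value + 1) with a mean-variance trend, all its groups together, for genes with a mean of at least 10, and p-values were adjusted by Benjamini and Hochberg over all of them. edgeR 4.0.16 and DESeq2 1.42.0 were run on the recovered reads as alternatives, beside other pseudocounts, filters, quantile normalisation, a replicate block and leaving out each library. A fold change on log2(value + 1) understates the change of low genes. The limma fit, without the interaction, was also run on simulated counts. Their spread was set at a fixed value for all genes and libraries, so that run does not cover the spread of these libraries.

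Same-numbered libraries deviated together between vehicle and 6 h in A375 culture (r of 0.567, 0.31 and 0.566 for the 3 pairs). They did so between 6 h and 48 h as well (0.436, 0.197 and 0.41), so the numbers may pair these libraries. Between vehicle and 48 h 1 pair fell short (0.028). The main differences, SEs and adjusted p come from fits without pairing, and the replicate block was run as an alternative. Intervals and floors, at a 95% level and 3 reads, cover counting error only, since reads carry no molecular identifiers. List genes named in the text are, for each list and comparison, up to 2 called genes per direction with the smallest adjusted p. The members and lists were chosen with earlier results of these data known. A few list, marker and pattern genes are not reported here.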

Additional observations from a re-analysis of the deposited data

Results flagged for a closer look

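Of 20 groups of 4 libraries tested in A375 tumours, 3 had a library far from the others, and chance flags about 1 in 20 groups. They were MMP14 under vehicle, with 1 library at 3985 normalised reads, TIMP2 under vemurafenib, with 1 at 4916, and TIMP2 under vehicle, with 1 at 2019.9.

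Some genes moved one way in every library of one comparison and the opposite way in another, and these differences were not tested. MMP3 was at 1.07 on the log2 scale in mixed A375R tumours under vemurafenib, which did not pass, and at -3.57 in Colo800. MMP14 was at 1.03 in UACC62 and at -0.36 in H3122. MMP15 was at 3.75 in A375 culture at 48 h and at -0.24 in Colo800. TIMP2 was at 2.09 in A375 culture at 48 h and at -0.74 in H3122. TIMP3 was at 0.97 in A375 tumours and at -2.66 in Colo800.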

How the results depend on the processing

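Of 42 member calls, 39 held under every alternative and 0 reversed, the exceptions being MMP13 and MMP14 in H3122 and MMP15 in Colo800. At 6 h in A375 culture, 1462 genes were called with the replicate block and 1045 with DESeq2, and 2 members with each. For MMP15 in UACC62 the difference was 0.10 after quantile normalisation, 0.0192 with edgeR and 9.5e-05 with DESeq2. In A375R alone under vemurafenib, 14 genes were called with no filter, 298 with the replicate block, 530 with 2 groups alone and 755 with DESeq2, and 1 member with 2 groups alone, and MMP3 was at 0.0480 after quantile normalisation. In mixed tumours under vemurafenib, 229 genes were called with 2 groups alone and 958 with DESeq2, and 1 member each with a pseudocount of 5, the replicate block, 2 groups alone, edgeR and DESeq2. For mixed against alone under vemurafenib, 11 genes were called with no filter, 10 after quantile normalisation, 65 with the replicate block, 8 with 2 groups alone, 13 with edgeR and 151 with DESeq2. Under vehicle, 297 were called with a filter at 50 and 870 with DESeq2, 2 members with 2 groups alone, and TIMP2 was at 0.0139 after quantile normalisation. For the interaction, 185 genes were called with no filter and 887 with DESeq2, with 1 member under the replicate block, 1 under edgeR and 2 under DESeq2. The cause of these shifts was not tested.

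With 1 library left out, the genes called ranged from 309 to 641 at 6 h, 1 to 326 in A375R alone, 96 to 563 in mixed tumours, 1 to 38 and 109 to 660 for mixed against alone under vemurafenib and under vehicle, and 10 to 526 for the interaction, and members called from 0 to 1 in mixed tumours and 0 to 2 for the interaction. At 6 h, MMP2 ranged from -0.18 to 0.29, MMP15 from -0.0123 to 0.36 and TIMP2 from -0.13 to 0.47. MMP15 ranged from -0.0729 to 0.0502 in UACC62 and -0.0263 to 0.14 in H3122, and MMP2 from -0.0782 to 0.0730 in A375 tumours. In A375R alone, MMP3 ranged from -0.52 to 0.52, MMP9 from -0.10 to 0.95 and MMP15 from -0.23 to 0.35. In mixed tumours, MMP1 ranged from -0.42 to 0.0690 and TIMP3 from -0.14 to 0.44. For mixed against alone under vemurafenib, MMP1 ranged from -0.32 to 0.47, MMP2 from -0.11 to 0.0371 and TIMP3 from -0.42 to 0.15, and under vehicle MMP2 from -0.28 to 0.17, MMP3 from -0.98 to 0.0551, TIMP2 from -0.13 to 0.0355 and TIMP3 from -0.0779 to 0.24. For the interaction, MMP2 ranged from -0.21 to 0.25 and TIMP3 from -0.51 to 0.0660.

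Libraries that moved the number of genes called by over 1.5 times were, at 6 h, vehicle replicates 2 (315 without it) and 3 (384) and 6 h replicate 2 (309). In A375R alone they were vemurafenib replicates 1 (4), 2 (2) and 3 (326) and vehicle replicates 1 (3), 2 (33) and 3 (1), and in mixed tumours vemurafenib replicates 2 (241) and 3 (256) and vehicle replicate 1 (96). For mixed against alone under vemurafenib they were mixed replicates 2 (21) and 3 (1) and alone replicates 1 (1) and 2 (2), and under vehicle mixed replicate 1 (109) and alone replicates 1 (168) and 3 (153). For the interaction they were mixed vemurafenib replicates 2 (160) and 3 (70), mixed vehicle replicate 1 (40), alone vemurafenib replicates 1 (152) and 2 (48) and alone vehicle replicates 1 (15), 2 (222) and 3 (10). In H3122 the numbers may be crossed (r = -0.209), and the crossed replicate block, chosen after seeing the data, called 8522 genes where 6436 were called without it. Where the numbers do not pair libraries, the block shares only a number between them. With 2 libraries per group in 3 tables, leaving 1 out assumes that the lone library varies like the other group.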
